A study of Mus musculus with 6 samples.

Results

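Genes of the heat shock protein and chaperonin families were examined for promoter binding of Tex10 and for the promoter mark H3K4me3 in day 2 mouse PGCLCs, cells made in culture that resemble primordial germ cells. The genes were all protein-coding genes on chromosomes 1 to 19 of GENCODE M21 (GRCm38) whose symbols begin with Hspa, Hspb, Hspd, Hspe, Hsph, Hsp90, Dnaja, Dnajb, Dnajc or Cct2 to Cct8, together with Tcp1. There were 83 such genes among 20722 protein-coding genes on these chromosomes. Chromatin immunoprecipitation and sequencing (ChIP-seq) was done in untreated 129Sv/J PGCLCs whose Tex10 protein carried an HA tag at its C-terminus. Per the labels, 2 samples used an antibody against the HA tag, 2 an antibody against H3K4me3, the trimethyl form of histone H3 at lysine 4 that marks active gene starts, and 2 were input DNA. The labels name no clone and do not say whether samples of a group came from separate cultures. The analysis rests on 1 list of genomic intervals per antibody, with 4331 intervals for HA-Tex10 and 29072 for H3K4me3. These lists hold positions only, so there is no signal height, no value for a single sample and no spread between replicates, and sequencing depth is unknown. Absence of an interval means only that nothing passed the authors' threshold there. An interval was counted at a gene if it came within 1 kb of the transcription start site (TSS) of any of its protein-coding transcripts.

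Chaperones are proteins that help other proteins to fold, to stay soluble or to be taken apart, and many of them are induced when cells are heated or otherwise stressed. Hsp70 proteins bind and release unfolded stretches in cycles driven by ATP, J-domain proteins (the Dnaj genes) bring them their clients and start the cycle, and Hsp110 proteins exchange the nucleotide. Hsp90 acts later on a smaller set of clients that includes kinases and hormone receptors, the ring complex TRiC (Tcp1 and the Cct genes) folds actin and tubulin, and small heat shock proteins (Hspb) hold unfolded proteins until Hsp70 takes over. The heat shock factor Hsf1 drives the stress-inducible members through a DNA element of alternating GAA and TTC units.

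Of 10 genes chosen to mark day 2 PGCLCs, 8 (80.0%) had H3K4me3 at a TSS, against 62.6% of all protein-coding genes on the autosomes. Those with the mark included Pou5f1, Nanog, Prdm1, Prdm14 and Tfap2c, while Dppa3 and Nanos3 lacked it. The 10 genes are too few to set these shares apart, and the count does not by itself identify the cells. Of the genes of other cell types reported here (Alb, Myh6, Ins2 and Neurod6), 0 of 4 had the mark. Chromosome 8 stood apart in the HA-Tex10 list, with an interval at 41.2% of its 741 genes with H3K4me3 against 12.7% on the other autosomes. Only Dnaja2 and Dnajb1 of the 83 members lie there.

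The promoters that bear most on the results are shown here, from 250 bases before to 50 bases after a RefSeq gene start on GRCm38.p6, written 5′ to 3′ on the strand of the gene. RefSeq windows matched 68 of the 83 members, and those not matched were Hsp90aa1, Hsp90ab1, Hspa8, Hspa9, Hspa13, Hspb2, Cct4, Dnajc2, Dnajc5, Dnajc5b, Dnajc11, Dnajc12, Dnajc18, Dnajc22 and Dnajc30. Hspa1b and Hspa1a encode the stress-inducible Hsp70 and are near-identical copies, and the first of the pair had an HA-Tex10 interval. Their windows, chr17:34959189-34959488 and chr17:34972107-34972406 on the minus strand, are given with the 4 bases that differ in capitals.
Hspa1b: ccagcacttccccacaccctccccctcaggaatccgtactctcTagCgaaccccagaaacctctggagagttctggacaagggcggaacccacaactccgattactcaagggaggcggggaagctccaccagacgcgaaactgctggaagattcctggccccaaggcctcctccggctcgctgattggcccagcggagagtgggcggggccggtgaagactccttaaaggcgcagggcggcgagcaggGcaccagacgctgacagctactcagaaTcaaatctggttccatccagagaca
Hspa1a: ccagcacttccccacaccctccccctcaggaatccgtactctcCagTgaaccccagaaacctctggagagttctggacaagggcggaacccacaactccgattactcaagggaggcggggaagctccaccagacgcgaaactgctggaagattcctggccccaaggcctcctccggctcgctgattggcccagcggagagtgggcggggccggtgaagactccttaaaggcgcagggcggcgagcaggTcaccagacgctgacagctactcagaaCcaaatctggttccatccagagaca
Counted from 1 at the 5′ end with the Hspa1b base first, the differences are T44C, C47T, G249T and T276C, so that 296 of 300 bases (98.7%) are the same.

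The next 4 windows show heat shock elements, with units that follow GAANNTTC or TTCNNGAA in capitals. Hsph1 encodes an Hsp110 protein and had an HA-Tex10 interval that lay upstream of its TSS and overlapped the 5′ end of the window (chr5:149636287-149636586, minus strand). Hspe1 shares its promoter with Hspd1, and the pair had none (chr1:55087898-55088197, plus strand). Dnajb6, which keeps aggregation-prone proteins soluble, also had none (chr5:29735648-29735947, plus strand). Cct2 encodes a TRiC subunit and had an interval that covers the marked letters (chr10:117063326-117063625, minus strand). These letters are a match of 2 units only, a form found at 15.8% of all genes with a window. The other Cct2 window, chr10:117063803-117064102, held 0 such matches.
Hsph1: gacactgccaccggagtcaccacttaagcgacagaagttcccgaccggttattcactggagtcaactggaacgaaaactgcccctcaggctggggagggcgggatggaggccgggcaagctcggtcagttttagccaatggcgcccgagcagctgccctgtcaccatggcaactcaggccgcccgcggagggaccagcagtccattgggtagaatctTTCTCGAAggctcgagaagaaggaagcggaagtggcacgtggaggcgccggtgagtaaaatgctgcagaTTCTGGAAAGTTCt
Hspe1: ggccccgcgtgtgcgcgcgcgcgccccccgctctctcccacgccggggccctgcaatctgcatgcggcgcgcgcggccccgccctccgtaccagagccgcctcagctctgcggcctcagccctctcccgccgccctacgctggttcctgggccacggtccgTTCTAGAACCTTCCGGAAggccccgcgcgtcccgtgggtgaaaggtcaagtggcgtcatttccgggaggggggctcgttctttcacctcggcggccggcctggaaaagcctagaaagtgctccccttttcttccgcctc
Dnajb6: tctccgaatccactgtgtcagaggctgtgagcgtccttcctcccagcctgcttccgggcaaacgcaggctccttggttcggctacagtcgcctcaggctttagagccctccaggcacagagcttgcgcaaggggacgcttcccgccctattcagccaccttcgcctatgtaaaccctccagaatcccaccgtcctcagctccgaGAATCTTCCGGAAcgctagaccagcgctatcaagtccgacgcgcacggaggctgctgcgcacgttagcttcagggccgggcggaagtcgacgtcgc
Cct2: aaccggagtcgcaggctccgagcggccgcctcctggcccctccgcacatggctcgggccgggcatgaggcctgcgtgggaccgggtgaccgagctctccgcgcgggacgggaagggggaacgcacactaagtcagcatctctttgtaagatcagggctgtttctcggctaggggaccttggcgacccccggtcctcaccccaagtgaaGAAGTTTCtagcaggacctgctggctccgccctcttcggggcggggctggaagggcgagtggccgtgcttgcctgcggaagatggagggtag

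The last pair encodes the main chaperones of the endoplasmic reticulum, Grp94 (Hsp90b1) and BiP (Hspa5). The capitals mark the endoplasmic reticulum stress element, CCAAT and CCACG with any 9 bases between them, or its reverse complement. Hsp90b1 (chr10:86705395-86705694, minus strand) had an HA-Tex10 interval within 1 kb and Hspa5 (chr2:34771840-34772139, plus strand) did not.
Hsp90b1: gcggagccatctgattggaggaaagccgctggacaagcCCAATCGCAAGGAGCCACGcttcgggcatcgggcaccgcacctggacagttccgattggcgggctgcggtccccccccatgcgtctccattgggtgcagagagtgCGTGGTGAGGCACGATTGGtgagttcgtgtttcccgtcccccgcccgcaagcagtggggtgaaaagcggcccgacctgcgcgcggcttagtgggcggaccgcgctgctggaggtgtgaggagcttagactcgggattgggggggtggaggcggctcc
Hspa5: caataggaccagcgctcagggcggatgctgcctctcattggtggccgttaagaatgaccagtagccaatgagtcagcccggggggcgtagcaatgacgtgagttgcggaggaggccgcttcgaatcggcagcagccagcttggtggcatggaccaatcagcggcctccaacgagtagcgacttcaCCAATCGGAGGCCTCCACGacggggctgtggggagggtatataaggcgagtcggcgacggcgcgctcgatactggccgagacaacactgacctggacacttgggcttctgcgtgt

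H3K4me3 was present at a TSS of 73 of the 83 chaperone genes (88.0%, Wilson 95% interval 79.2 to 93.3%), against 62.6% of all protein-coding genes on chromosomes 1 to 19. HA-Tex10 was present at 15 of the 83 (18.1%, 11.3 to 27.7%), against 9.13% of all genes. All 15 also had H3K4me3. Among the 73 marked members the share with HA-Tex10 was 20.5% (12.9 to 31.2%), against 14.3% of all marked genes, a share that lies inside the members' interval. Of the 10 members without H3K4me3, 0 had HA-Tex10, which allows a share of up to 30.0%, and 0.477% of all genes without the mark had it. The intervals around the shares cover the counting of genes only and treat genes as independent, which neighbours that share a promoter are not.

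**Figure D1:**
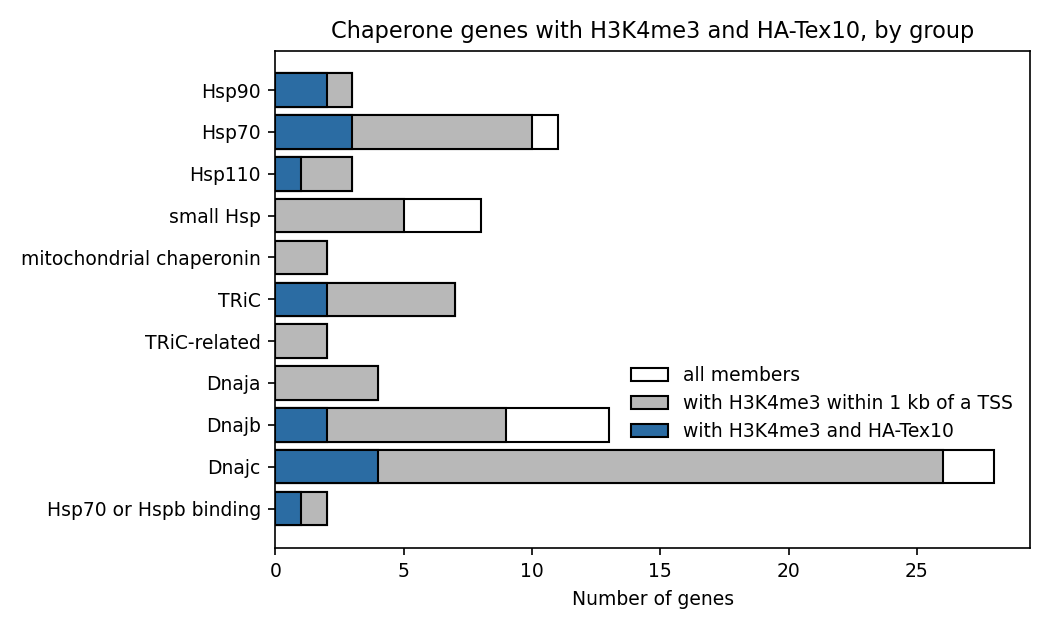
Number of chaperone genes in each group (bar length, white), with H3K4me3 within 1 kb of a TSS (grey) and with both H3K4me3 and HA-Tex10 (blue). HA-Tex10 was found at 2 of 3 Hsp90 genes and 3 of 11 Hsp70 genes, and at 0 of 8 small heat shock protein genes.

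The 3 Hsp90 genes all carried H3K4me3 intervals of 2530 bp or more, and 2 of them had HA-Tex10. Hsp90ab1, the constitutive cytosolic Hsp90 (ENSMUSG00000023944), spans chr17:45567775-45573271 and is transcribed from the minus strand. It had a pair of HA-Tex10 intervals in 1 H3K4me3 interval of 3513 bp. The interval chr17:45572526-45572724 (199 bp) contained a TSS of the gene, and the interval chr17:45572936-45573185 (250 bp) lay 68 bp from another, with both centres in an intron. At Hsp90b1 the interval chr10:86705816-86705940 (125 bp) lay 307 bp upstream of the TSS and contained a TSS of Ttc41, which is transcribed in the opposite direction, so it cannot be assigned to 1 of these genes. The stress-inducible Hsp90aa1 had no interval, the nearest being 142 kb away, although its H3K4me3 interval of 3912 bp was the second widest among the members. The constitutive and the inducible cytosolic genes thus both had wide H3K4me3 and differed in the presence of an HA-Tex10 interval, in lists that give no error for that difference.

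Hsp70 genes numbered 11, of which 10 had H3K4me3 and 3 had HA-Tex10 (27.3%, 9.75 to 56.6%, against 9.13% of all genes). Those 3 were Hspa1b, Hspa9 (mortalin, the Hsp70 of the mitochondrial matrix) and Hspa12a (an atypical Hsp70 with a divergent sequence). The Hspa12a interval chr19:58943410-58943865 was the widest of those at members, at 456 bp, had its centre in the first exon outside the coding sequence and also contained a TSS of the neighbour Eno4. At Hspa9 the interval chr18:34954453-34954681 (229 bp) lay 96 bp upstream of the TSS and reached past the end of an H3K4me3 interval of 2414 bp, into a gap before the next one. Hspa8 (Hsc70, the constitutive cytosolic Hsp70) had the third widest H3K4me3 of the members at 3573 bp, and its nearest HA-Tex10 interval was 1394 kb away. Hspa5 had H3K4me3 of 2368 bp and no HA-Tex10 within 98.8 kb. Hspa2, Hspa13, Hspa14, Hspa1a and Hspa1l had H3K4me3 alone, and Hspa12b, which is known from endothelial cells, had neither.

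The interval at Hspa1b, chr17:34959228-34959576 (349 bp), contained the TSS and lay inside an H3K4me3 interval of 1576 bp, chr17:34958575-34960150. Of its 32-base words, 53.3% occur more than once on the assembled chromosomes, the highest share among the intervals at members and the only 1 of the 19 above 50%. The Hspa1a TSS lies 12.9 kb away on the same strand. In its promoter window 62.0% of words are repeated, as in that of Hspa1b. Hspa1a had no HA-Tex10 interval and an H3K4me3 interval of 538 bp, chr17:34971962-34972499 that it shared with Hspa1l on the opposite strand. How reads that match both copies were placed is not given in the sources used here, and its part in the difference between the copies was not tested. Leaving out both copies gave HA-Tex10 at 14 of 81 members (17.3%).

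**Figure D2:**
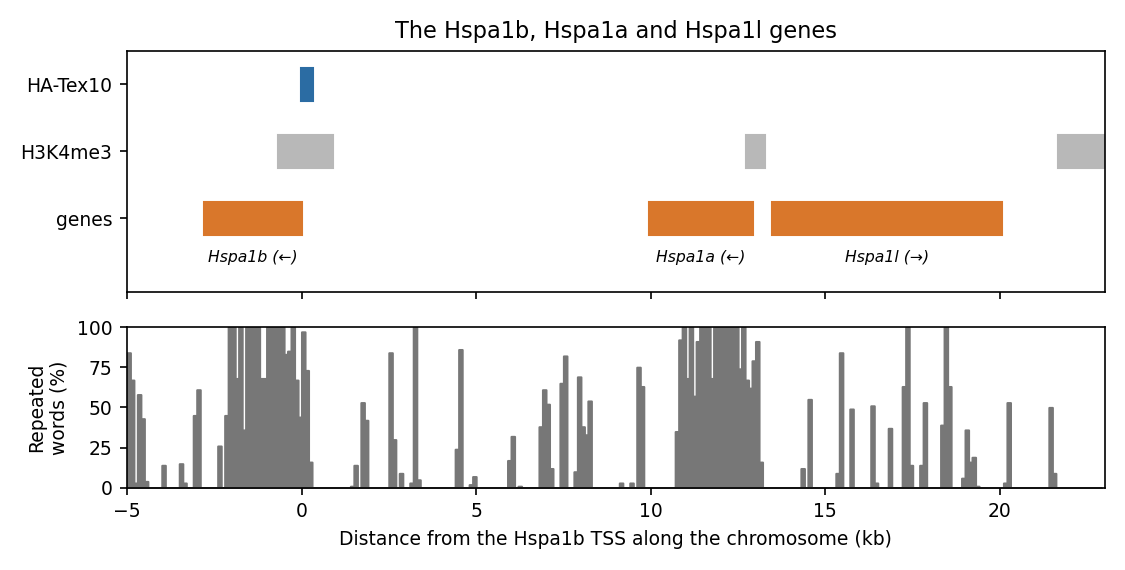
Intervals and genes around Hspa1b (top; arrows give the direction of transcription) and the share of 32-base words that occur more than once on the assembled chromosomes in steps of 100 bp (bottom), against distance from the Hspa1b TSS in kb. Both copies lie in repeated sequence, and the HA-Tex10 interval and the 1576 bp H3K4me3 interval were placed at Hspa1b, while the 538 bp H3K4me3 interval covers the start of Hspa1a and reaches towards Hspa1l.

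Of the 3 Hsp110 genes, Hsph1 (Hsp105) had HA-Tex10, and Hspa4 and Hspa4l had H3K4me3 alone. The Hsph1 interval chr5:149636568-149636787 (220 bp) began 192 bp upstream of the nearest TSS. It was the 1 interval of the 19 at members that met no H3K4me3. The H3K4me3 interval of the gene, chr5:149634532-149636302 (1771 bp), ended 265 bp before it. Hspbp1, a nucleotide exchange factor for Hsp70, had an interval of 329 bp, chr7:4685095-4685423, at 27 bp from a TSS. It lay mostly in an H3K4me3 interval of 378 bp and reached into the gap between it and another of 924 bp. Hspbap1, a binding partner of a small heat shock protein, had H3K4me3 alone.

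Small heat shock protein genes numbered 8, and HA-Tex10 was found at 0 of them (which allows a share of up to 37.5%, against 9.13% of all genes). H3K4me3 was present at 5, namely Hspb1 (Hsp25, the form induced by heat in many cell types, 2152 bp), Hspb6 (2121 bp), Hspb11 (also known as the intraflagellar transport protein Ift25, 2118 bp), Hspb9 (1025 bp) and Hspb8 (607 bp). Hspb2, Hspb3 and Hspb7, which are known for expression in heart and skeletal muscle, had neither interval. The genes of the mitochondrial chaperonin, Hspd1 (Hsp60) and Hspe1 (Hsp10), start 108 bp apart on opposite strands under 1 H3K4me3 interval of 2948 bp. Their nearest HA-Tex10 interval was 2135 kb away, the largest distance among the members.

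TRiC genes numbered 7, all with H3K4me3, at widths from 1017 to 3134 bp with a median of 2560 bp. Cct2 and Cct3 had HA-Tex10 (28.6%, 8.22 to 64.1%, a range that holds the 9.13% of all genes). At Cct2 the interval chr10:117063410-117063608 (199 bp) had its centre in an intron, 134 bp upstream of the nearest TSS and 305 bp downstream of the 5′-most one. Cct3 had an interval of 235 bp over its TSS, chr3:88297053-88297287, and upstream of it a pair of slivers of 11 bp and 4 bp. The Cct3 promoter is shared with Tsacc, whose nearest TSS is 54 bp from the widest of these intervals. Tcp1 (2560 bp of H3K4me3), Cct4 (2085 bp), Cct5 (3048 bp), Cct7 (1709 bp) and Cct8 (3134 bp) had no HA-Tex10 interval within 17.4 kb. The related genes Cct6b, expressed mainly in testis, and Cct8l1 had H3K4me3 alone. Cct6a, the remaining TRiC subunit, is annotated as a processed_transcript gene in GENCODE M21 and so is no member. It had H3K4me3 of up to 1317 bp, and its nearest HA-Tex10 interval was 1676 bp from a TSS.

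J-domain protein genes numbered 45, of which 39 had H3K4me3 and 6 had HA-Tex10 (13.3%, 6.26 to 26.2%, a range that holds the 9.13% of all genes). Among those with H3K4me3 the share was 15.4%, near the 14.3% of all marked genes. The other 38 members had HA-Tex10 in 9 cases (23.7%, 13.0 to 39.2%), and these ranges overlap. The range of the other members lies above the 9.13% of all genes. Among the 34 of them with H3K4me3 the share was 26.5% (14.6 to 43.1%), a range that starts just above the 14.3% of all marked genes. It overlaps that of the marked J-domain genes, 7.25 to 29.7%. By class, HA-Tex10 was found at 0 of 4 Dnaja genes, 2 of 13 Dnajb genes and 4 of 28 Dnajc genes. Dnajb1 (Hsp40, the stress-inducible partner of cytosolic Hsp70) had intervals of 283 bp, chr8:83607835-83608117, and 213 bp, chr8:83608402-83608614. The first lay 76 bp upstream of a TSS and the other contained a TSS, with its centre in a coding exon, and both lay inside an H3K4me3 interval of 3026 bp. Dnajb12, a J-domain protein of the endoplasmic reticulum membrane, had an intronic interval of 413 bp, chr10:59879791-59880203, with its centre 371 bp downstream of a TSS.

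The 4 Dnajc genes with HA-Tex10 were Dnajc5 (cysteine string protein of synaptic vesicles), Dnajc14 (of the endoplasmic reticulum membrane), Dnajc17 (a nuclear protein with an RNA recognition motif) and Dnajc30 (a mitochondrial protein). At Dnajc5 (chr2:181520248-181520504, 257 bp) and Dnajc30 (chr5:135063985-135064225, 241 bp) the interval contained the TSS, and at Dnajc30 it also contained a TSS of Bud23. The Dnajc17 interval, chr2:119208944-119209213 (270 bp), lay 149 bp upstream and contained a TSS of Zfyve19. Dnajc14 had only a sliver of 15 bp, chr10:128805021-128805035, at 519 bp from a TSS, and it is the member nearest to the edge of the 1 kb window from inside. J-domain genes without H3K4me3 were Dnajb3, Dnajb7, Dnajb8, Dnajb13, Dnajc5b and Dnajc5g.

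**Figure D3:**
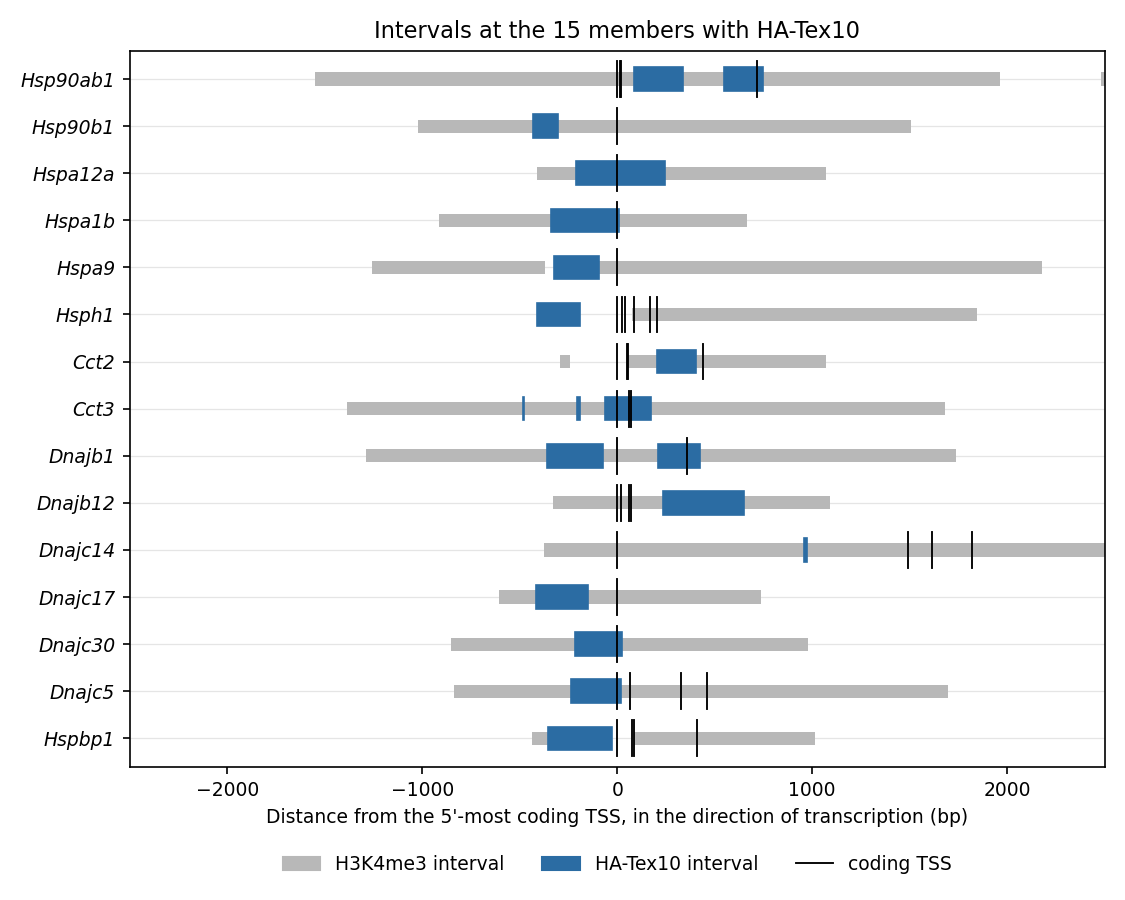
HA-Tex10 intervals (blue) and H3K4me3 intervals (grey) at the 15 members with HA-Tex10, against distance in bp from the 5′-most coding TSS in the direction of transcription; black ticks are coding TSS. The Hsph1 interval lies outside H3K4me3, those of Hspa9 and Hspbp1 reach into a gap between H3K4me3 intervals, and Dnajc14 and Cct3 hold slivers of 4 to 15 bp.

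The 15 members had 19 HA-Tex10 intervals with a median width of 235 bp, against 234 bp for the 1771 intervals at a TSS of any gene. In the lists, 18 of the 19 shared at least 1 bp with H3K4me3 and 16 lay wholly inside it. This overlap was not counted for the intervals at all genes. Of all 1891 genes with HA-Tex10 at a TSS, however, 1854 also had H3K4me3 at a TSS, so the pairing is not particular to the members. Interval centres lay upstream of the nearest TSS of the member in 16 cases (84.2%), with a median of -164 bp, where negative values are upstream. Over the 2105 pairs of a gene and an interval in all genes, 58.0% of centres lay upstream, with a median of -41.0 bp. Measured from the 5′-most TSS, 11 of the 19 (57.9%) were upstream, against 45.6% of all pairs, so the share depends on which start site is taken. By annotation, 11 centres lay upstream of the gene, 5 in introns, 2 in exons outside the coding sequence and 1 in a coding exon.

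The nearest HA-Tex10 interval lay between 1 and 5 kb from a TSS in 0 of 83 members, which allows a share of up to 3.61% and is not distinguishable from the 2.04% of all genes. Within 5 kb of a TSS there were still 15 members (18.1%), against 11.2% of all genes. Beyond the window the next member was Dnajb7, at 8116 bp, which gave 16 members within 10 kb (19.3%, against 13.6% of all genes). Dnajc4 followed at 11.9 kb and Hspa1a at 12.6 kb. An HA-Tex10 interval elsewhere in the gene body, away from a TSS, was found at 0 of the 68 members without an interval at a TSS. The same count was not made for all genes, so it cannot be called a trait of the members. In 9 members the nearest interval lay over 1 Mb away, and a similar share of members (89.2%) and of all genes (90.4%) had one within that distance.

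**Figure D4:**
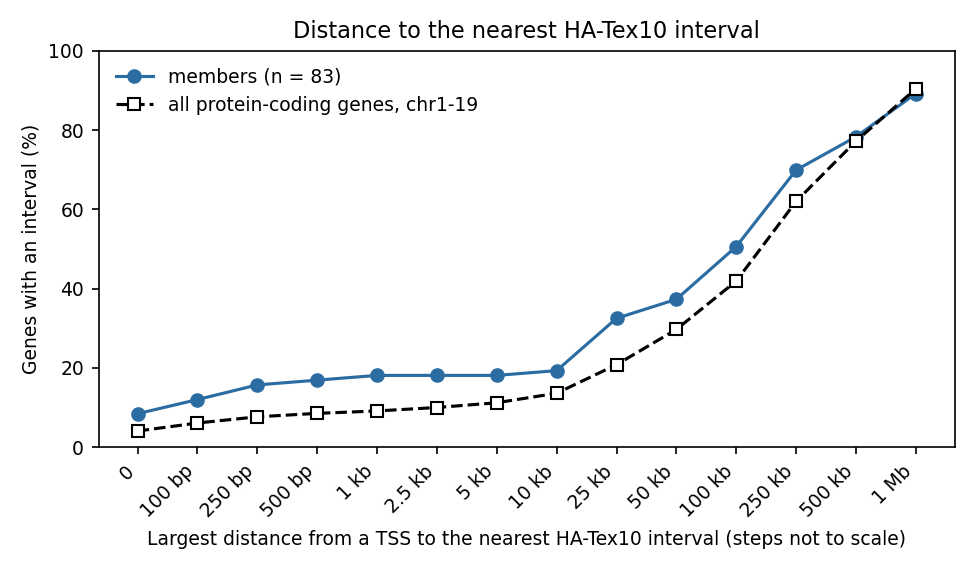
Share of genes (%) whose nearest HA-Tex10 interval lies within a given distance of a TSS, for the 83 members (circles) and all protein-coding genes on chromosomes 1 to 19 (squares); the distance steps are not to scale. At 1 kb and at 5 kb the members' share is 18.1%, and that of all genes is 9.13% and 11.2%; at 1 Mb the shares are 89.2% and 90.4%.

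The width of H3K4me3 was taken from the widest interval of each gene. Its median was 1539 bp at marked members (interquartile range 1009 to 2368 bp, n = 73) and 1360 bp over all marked genes (879 to 1981 bp, n = 12966). The 95% interval of the members' median from its order statistics, 1300 to 1833 bp, holds the median of all genes. Whether a width is that of a called peak or of an overlap between calls is not given in the sources used here. The range among members was 356 bp at Dnajc28 to 4013 bp at Dnajb4. Behind Dnajb4 came Hsp90aa1 and Hspa8, and all 3 lacked HA-Tex10. The narrowest after Dnajc28 were Cct8l1 at 506 bp and the interval of 538 bp that Hspa1a and Hspa1l share. Hsp90 genes had the widest group median, at 3513 bp, and TRiC genes had 2560 bp, compared with 1174 bp for Dnajc genes.

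Members with HA-Tex10 had a median H3K4me3 width of 1833 bp (n = 15, range 924 to 3513 bp) and marked members without it 1416 bp (n = 58, range 356 to 4013 bp). The ranges overlap, and the same order was seen over all marked genes, with 1756 bp (n = 1854) and 1294 bp (n = 11112). When all marked genes were cut into 4 classes of near-equal size by this width, the share with HA-Tex10 went from 5.98% in the narrowest class through 11.3% and 16.6% to 23.3% in the widest. The members fell unevenly over these classes, with 12, 18, 16 and 27 genes from narrowest to widest. HA-Tex10 was present at 0 of 12, 3 of 18 (16.7%), 5 of 16 (31.2%) and 7 of 27 (25.9%) of them. Over all genes the share was thus highest in the widest class. At the members the third and the widest class hold too few genes to be put in order. The part of width in the members' share was not tested.

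**Figure D5:**
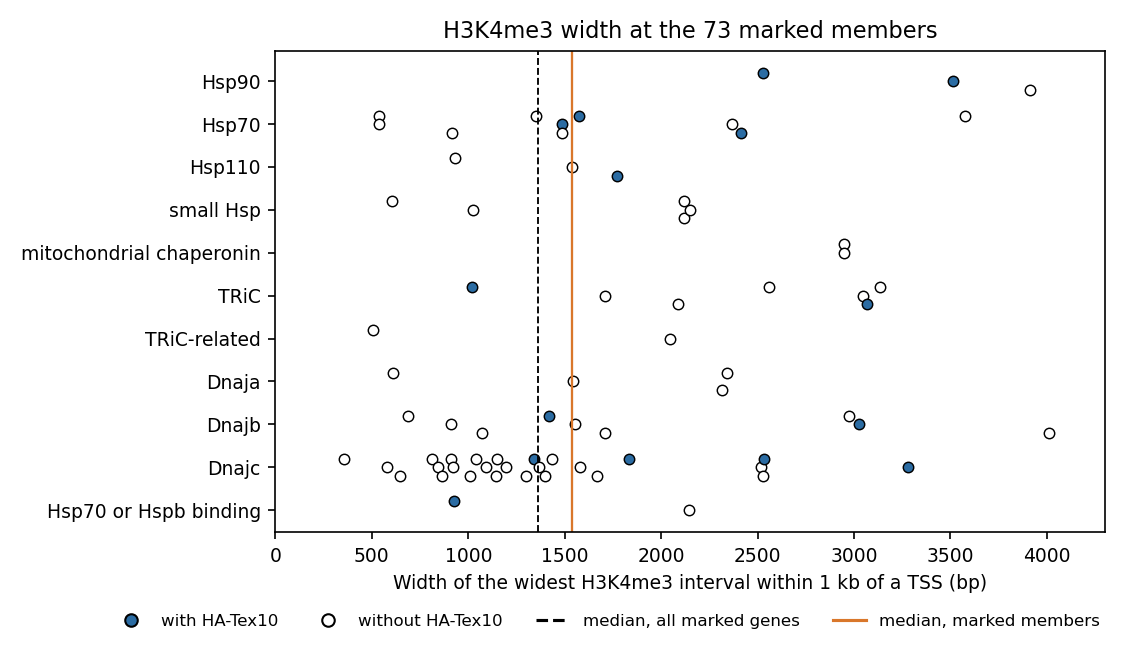
Width in bp of the widest H3K4me3 interval within 1 kb of a TSS at each of the 73 marked members, by group, with (blue) and without (white) HA-Tex10; lines give the medians of all marked genes (dashed, 1360 bp) and of marked members (1539 bp). The Hsp90 genes lie at 2530 bp or more, and Dnajc genes spread from 356 to 3280 bp.

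Shared promoters were common. An opposite-strand coding TSS of another gene lay within 1 kb of a TSS at 25 of the 83 members (30.1%), against 11.7% of all genes. Both partners were members in the pairs Hspd1 with Hspe1 and Hspa1a with Hspa1l. Tcp1 starts 16 bp from Mrpl18, which encodes a mitochondrial ribosomal protein, and Dnajc2 starts 32 bp from Psmc2, which encodes a proteasome subunit. HA-Tex10 was present at 6 of the 25 (24.0%, against 23.1% of all genes with such a neighbour), namely Hsp90b1, Hspa12a, Cct3, Dnajc14, Dnajc17 and Dnajc30. For the 58 members with no such neighbour it was present at 9 (15.5%, against 7.27% of all genes without one). These shares have no interval and were not limited to genes with H3K4me3, which was more frequent at members than at all genes. The gap therefore cannot be called a trait of members without a shared promoter. Of the 19 intervals, 15 lay at least as near to a TSS of the member as to that of any other coding gene. The interval at Hsp90b1 was nearer to Ttc41, that at Dnajc17 to Zfyve19, and both slivers at Cct3 to Tsacc.

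The promoter windows of the 68 matched members were searched on both strands for short motifs, and a match is a description of letters, not of a bound factor. A heat shock element of 3 units, GAA and TTC in alternation with any 2 bases between units and starting with either, was found at 4 members (5.88%), against 0.593% of 15680 genes with a window and 0.603% of all 32851 windows. These were Hsph1, Hspd1, Hspe1 and Dnajb6. The windows of Hspd1 and Hspe1 overlap, and the same stretch of DNA was counted for both genes. In the windows of Hsph1, Hspe1 and Dnajb6 shown above, capitals mark matches of 2 units, and those that overlap form the longer elements. The first stretch of capitals in Hsph1 is a match of 2 units only. In Hspe1 the capitals form a run of 4 alternating units that Hspd1, whose window is not shown, shares on the other strand. Only Hsph1 among the 4 had an HA-Tex10 interval, and its element, chr5:149636288-149636300, lay outside that interval. The heat shock element was chosen with the members' functions in view, so its excess over all genes was to some degree fixed in advance. The form with 2 units, GAANNTTC or TTCNNGAA, which every longer element contains, was found at 19 members (27.9%), against 15.8% of all genes. It was present at 3 of the 11 members with HA-Tex10 and a window (Hspa1b, Hsph1 and Cct2) and at 16 of the other 57. At Hspa1b (chr17:34959335-34959342) and Cct2 (chr10:117063410-117063417) the letters lay inside the HA-Tex10 interval. Windows of 500 bases either side of the 5′-most TSS held an element of 3 units at 9 of the 68 (13.2%, against 1.77% of all genes), adding Hsp90b1, Cct8, Tcp1, Dnaja1 and Dnajb5. This count again holds both Hspd1 and Hspe1.

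The endoplasmic reticulum stress element was found at Hsp90b1, Hspa5 and Dnajc3, 3 of 68 members (4.41%), against 0.159% of all genes. Each of these encodes a chaperone or co-chaperone of that compartment, and the motif was chosen with the members' functions in view. Hsp90b1 holds 2 copies, both outside its HA-Tex10 interval. The other motifs were nearer to the background. The CCAAT box was found at 29 members (42.6%, against 41.7% of all genes), the E-box CACGTG at 7 (10.3%, against 9.22%) and the TATA box TATAAA at 4 (5.88%, against 14.4%). The GC box GGGCGG was found at 50 (73.5%, against 51.6%), and among genes with H3K4me3 at 80.0% of 60 members and 71.6% of 10047 genes. The median GC content of the window was 62.0% at the 11 members with HA-Tex10 (range 55.3 to 70.7%), 61.7% at 49 marked members without it and 55.0% at 8 members without H3K4me3. Over all genes it was 61.3% with both HA-Tex10 and H3K4me3, 62.0% with H3K4me3 alone and 47.7% without H3K4me3.

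Other genes of the chaperone system, from a list of 40 co-factors on chromosomes 1 to 19, had H3K4me3 in 39 cases (97.5%, against 62.6% of all genes) and HA-Tex10 in 9 (22.5%, against 9.13%). Among the marked ones the share with HA-Tex10 was 23.1%, against 14.3% of all marked genes, and 2 of the 9, Bag4 and Calr, lie on chromosome 8. No interval was made around the shares with HA-Tex10, so they do not set the co-factors apart from other genes. Stip1, which hands clients from Hsp70 to Hsp90, had an interval of 238 bp that contained its TSS, and Stub1, the ubiquitin ligase that acts with both, one of 97 bp. Among 12 Hsp70 co-factors, 4 had an interval, namely Bag4, Bag6, St13 and Grpel1, the nucleotide exchange factor of Hspa9. The others were Unc45a, Clpb and Calr, the lectin chaperone calreticulin, while Hsf1, Hsf2 and Hsf4 and the 5 prefoldin subunits on these chromosomes had none. The subsets of this list are too small for their counts to set them apart from all genes. Unc45b, which acts on myosin in muscle, was the only gene of this list without H3K4me3.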

How the data were processed

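ChIP-seq of day 2 PGCLCs was read from 3 deposited interval lists. Bowtie2 2.3.4.3, SAMtools 1.9, MACS2 2.1.2, HOMER and the build mm10 are named in the submitters' processing notes, without roles. The calling threshold, the use of input and the way replicates were combined are not given in the sources used here, so a width may be that of a peak or of an overlap. The deposited lists give start and end in bp, with no score or p-value. Their narrowest HA-Tex10 interval is 1 bp. On GRCm38, the same assembly as mm10, 0 intervals passed a chromosome end. The 2990 distinct intervals of the third list were the HA-Tex10 intervals that share at least 1 bp with H3K4me3, so it served only as an alternative.

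TSS came from GENCODE M21, and promoter sequences from RefSeq (GRCm38.p6), all 87 windows of members being identical to the genome. Repeats were scored as the share of 32-base words found more than once in the assembled chromosomes, over at least 100 bp, with 50% as the limit. Shares have Wilson 95% intervals, and a count of 0 allows 3 counts of the total. No test was made, since no value of a single sample exists and the members are a chosen list. Members and lists were chosen with earlier results of these data known. One marker gene of another cell type is not reported here, for a reason unrelated to its value. Genes named were every member with HA-Tex10, every member without H3K4me3, those of the Hsp90, Hsp110, Hsp60, TRiC, Hsp70 and small heat shock groups, those at either end of H3K4me3 width, and co-factors with HA-Tex10. Beyond this rule, Dnajb7, Dnajc4, Dnaja2, Dnajb6, Dnajc2, Dnajc3, Cct6a, Unc45b and the members with a motif were named after their values were seen. Scripts used Python 3.11.15 with numpy 2.4.6 and scipy 1.17.1, and the window search was tested on simulated data.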

Additional observations from a re-analysis of the deposited data

How the results depend on the processing

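No paired analysis was possible because the lists hold no replicates, and for that reason none could be left out. Of 42 values under alternatives, 39 stayed within the 95% interval of the value reported and 3 left it. With only H3K4me3 intervals wider than the median the share of members with the mark was 77.1%, against 51.5% of all genes. With 2 units in place of 3 the heat shock element was found in 27.9% of members, against 15.8% of all genes. With the TSS of any annotated gene as neighbour 41.0% of members shared a promoter, against 22.0% of all genes. In these 3 settings the share of all genes thus moved in the same direction. The share with HA-Tex10 ranged from 12.0%, with HA-Tex10 intervals wider than the median, to 18.1%, and in each setting the share of all genes was lower. That setting lost Hsp90b1, Hspa9, Hsph1, Cct2 and Dnajc14. Hspa1b was lost without mostly repeated intervals, Hsph1 in the third list, and Dnajc14 with a 500 bp window or without intervals under 50 bp. No alternative added a member. Alternatives that left out intervals under 50 bp or the Hspa1 copies, or that added Cct6a, were chosen after seeing the data.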

Other observations

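Processed pseudogenes named after members numbered 16 on chromosomes 1 to 19 and included copies of Hspd1, Hspe1, Tcp1 and Cct3. An HA-Tex10 interval lay within 1 kb of 0 of them, and an H3K4me3 interval within 1 kb of 0 of them. No share of other pseudogenes was taken, and 16 are too few to set these copies apart from other genes in HA-Tex10.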
